A study of Mus musculus with 17 samples.

Results

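The 43 genes described here encode the enzymes that activate, shuttle and oxidise fatty acids in liver, together with the nuclear receptor Ppara and genes it is known to drive. They were chosen by symbol, as the rows of the deposited expression table whose Ensembl gene ID maps to 43 listed mouse symbols. The rule holds no measured value, but the symbols were listed with earlier results of these data known. All 43 were found among the 46073 listed genes, all had a mean of at least 1 FPKM (fragments scaled to transcript length and library size) over the libraries, and none was at 0 in any library, so all 43 were tested. By role, 2 are regulators, 5 belong to activation and the carnitine shuttle, 13 to mitochondrial beta-oxidation, 7 to the peroxisome and 3 to microsomal omega-hydroxylation. A further 5 are acyl-CoA thioesterases, 2 act in ketone body metabolism and fuel choice, and 6 in uptake, binding, storage or secretion.

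Hepatocytes take up fatty acids, couple them to coenzyme A and pass them into mitochondria through the carnitine shuttle, where each turn of beta-oxidation shortens the chain and feeds electrons to the respiratory chain. Peroxisomes shorten very long chains, and microsomal Cyp4a enzymes oxidise the far end of the chain. Ppara pairs with the retinoid X receptor, is activated by fatty acids during fasting, and binds direct repeats of a short hexamer near many of these genes.

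The study sequenced total RNA from livers of male C57BL/6 mice of 11 to 12 weeks, 24 h after an injection of acetaminophen (APAP, a painkiller that injures the liver at high dose) or saline. The 17 libraries carry 3 genotype labels for Nampt, the rate-limiting enzyme of NAD salvage from nicotinamide: Nampt +/+ (WT), Nampt +/- (Het) and Nampt OE. Saline libraries numbered 3 in WT, 2 in Het and 2 in OE, with 1 further WT library labelled saline IG (WT IG). APAP at 200 mg/kg was given in 3 WT, 3 Het and 2 OE libraries, and 1 OE library had 300 mg/kg (OE 300). WT saline 1, WT saline 2, OE APAP 2 and OE 300 came from mice of 12 weeks, and the others from mice of 11 weeks. Age had no term in the fit. How the Nampt +/- and Nampt OE alleles were made, and in which cells OE acts, is not given in the sources used here. Whether each library is a different animal is stated nowhere beyond the labels, so the p-values measure sample-to-sample spread, some of which may be technical. WT, Het and OE below stand for libraries so labelled.

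Nampt itself read 15.3 to 18.0 FPKM in WT saline, 23.0 to 26.0 in Het saline and 22.4 to 27.2 in OE saline, and 23.4 in WT IG. After APAP it read 10.9 to 16.7 FPKM in WT, 11.3 to 15.4 in Het, 18.5 to 36.0 in OE and 18.2 in OE 300. The libraries labelled Nampt +/- thus lay above WT saline, though not all above WT IG, and overlapped WT after APAP, going against their label, and the OE libraries lay above WT and Het after APAP without overlap. OE saline 2 and OE APAP 1, both from lane L004 and not perfused, stood apart on the second principal component of all tested genes (13.1% of the variance), at 38.3 and 38.7, where the other 15 libraries ran from -17.8 to 15.0. Every perfused liver was in lanes L007 and L008 and every other liver in L004 to L006, so an effect of lane cannot be told apart from one of perfusion. Relative depth, read from the steps between low values, ran from 0.312 in OE APAP 1 to 1.32 in Het APAP 2, with WT IG set to 1. Hepatocyte markers were high in every library, with summed levels of 13407 to 16646 FPKM in the lowest group, Het APAP, and 19213 to 24959.5 in OE saline. The total FPKM over all listed genes ran from 466883 in Het APAP 3 to 916006 in OE 300. Marker sums here and below were not scaled to these totals, which limits comparing them between libraries.

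RefSeq promoter windows (build GRCm38, from 250 bases before to 50 bases after a gene's start) were held for 35 of the 43 genes, in 40 windows. None was held for Cyp4a10, Cyp4a14, Cyp4a31, Acaa2, Angptl4, Crat, Decr1 or Vnn1, so these genes were not searched. The 40 windows were searched on both strands for AGGTCANAGGTCA, the direct repeat with 1 spacer base to which Ppara and its partner are known to bind, which overlaps no other motif searched. An exact copy was in 0 of 40 windows and in 0.0396% of all 32851 windows. With up to 1 mismatch it was in 2 of 40 windows, or 5.0%, against 0.554% of all windows, and with up to 2 mismatches in 8 of 40, or 20.0%, against 3.86%. The 2 windows with 1 mismatch belong to Fabp1 and Acot12. A match is a description of the letters, and binding was not measured. Both windows are shown because they hold the closest matches among the searched genes that fell after APAP. They are given as the 250 bases before the start (Fabp1 chr6:71199629-71199878, Acot12 chr13:91741271-91741520, both on the + strand), 5′ to 3′, with the match on the opposite strand in capitals.
Fabp1: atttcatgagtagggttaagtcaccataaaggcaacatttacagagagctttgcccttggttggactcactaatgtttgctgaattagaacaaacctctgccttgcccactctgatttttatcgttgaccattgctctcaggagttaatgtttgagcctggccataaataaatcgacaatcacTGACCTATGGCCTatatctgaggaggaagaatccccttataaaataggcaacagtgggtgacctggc
Acot12: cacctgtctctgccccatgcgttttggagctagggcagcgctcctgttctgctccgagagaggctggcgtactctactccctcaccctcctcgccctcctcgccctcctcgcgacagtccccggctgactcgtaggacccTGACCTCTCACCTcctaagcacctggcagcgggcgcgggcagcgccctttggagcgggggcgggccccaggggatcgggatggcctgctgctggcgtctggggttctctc

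Windows with 2 mismatches belong to Acot4, Cd36, Creb3l3, Etfa, Plin2 and Slc25a20. For the 5 of them whose match lies before the start, the match is shown in capitals with its flanks, in the direction of the gene, to set beside the values below: Creb3l3, Etfa and Acot4 fell in the averaged response, and Cd36 and Plin2 were not called.
Acot4: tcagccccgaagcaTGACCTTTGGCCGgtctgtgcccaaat
Cd36: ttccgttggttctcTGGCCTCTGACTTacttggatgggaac
Creb3l3: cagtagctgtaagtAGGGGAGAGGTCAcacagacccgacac
Etfa: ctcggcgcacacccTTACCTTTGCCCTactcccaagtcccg
Plin2: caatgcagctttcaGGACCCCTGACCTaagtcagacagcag
These lie at chr12:84038352-84038392 (Acot4, + strand), chr5:17835933-17835973 (Cd36, - strand), chr10:81092774-81092814 (Creb3l3, - strand), chr9:55512294-55512334 (Etfa, - strand) and chr4:86670258-86670298 (Plin2, - strand), and the matches begin 13, 63, 209, 77 and 225 bases before the start. A window without a match says only that these letters were not in it.

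Fatty acid oxidation genes fell as a group after APAP. In the averaged response, 37 of 43 genes were lower, 1 was higher (Pdk4) and 5 were not called (Acot2, Crat, Cd36, Plin2 and Angptl4). This response is the mean over the 3 labels of the difference between 200 mg/kg APAP and saline on the log2(FPKM + 1) scale. It comes from a fit with a term for liver perfusion. Changes given with an SE, and class medians, are thus adjusted for perfusion and can differ from plain differences of the printed FPKM values. Calls are limma tests with Benjamini-Hochberg adjusted p under 0.05 over all 11034 tested genes, of which 13.4% were lower and 9.96% higher. The median change was -1.01 over the 43 genes and -0.0241 over all tested genes. All 13 mitochondrial enzymes fell, with changes from -1.24 to -0.56 and a median of -0.98. All 7 peroxisomal genes fell, with a median of -1.48, and all 3 microsomal Cyp4a genes, with a median of -2.58; the difference between these classes was not tested. Of the 38 calls, 27 held in every setting in which the gene was tested, and the other 11 are marked below.

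**Figure D1:**
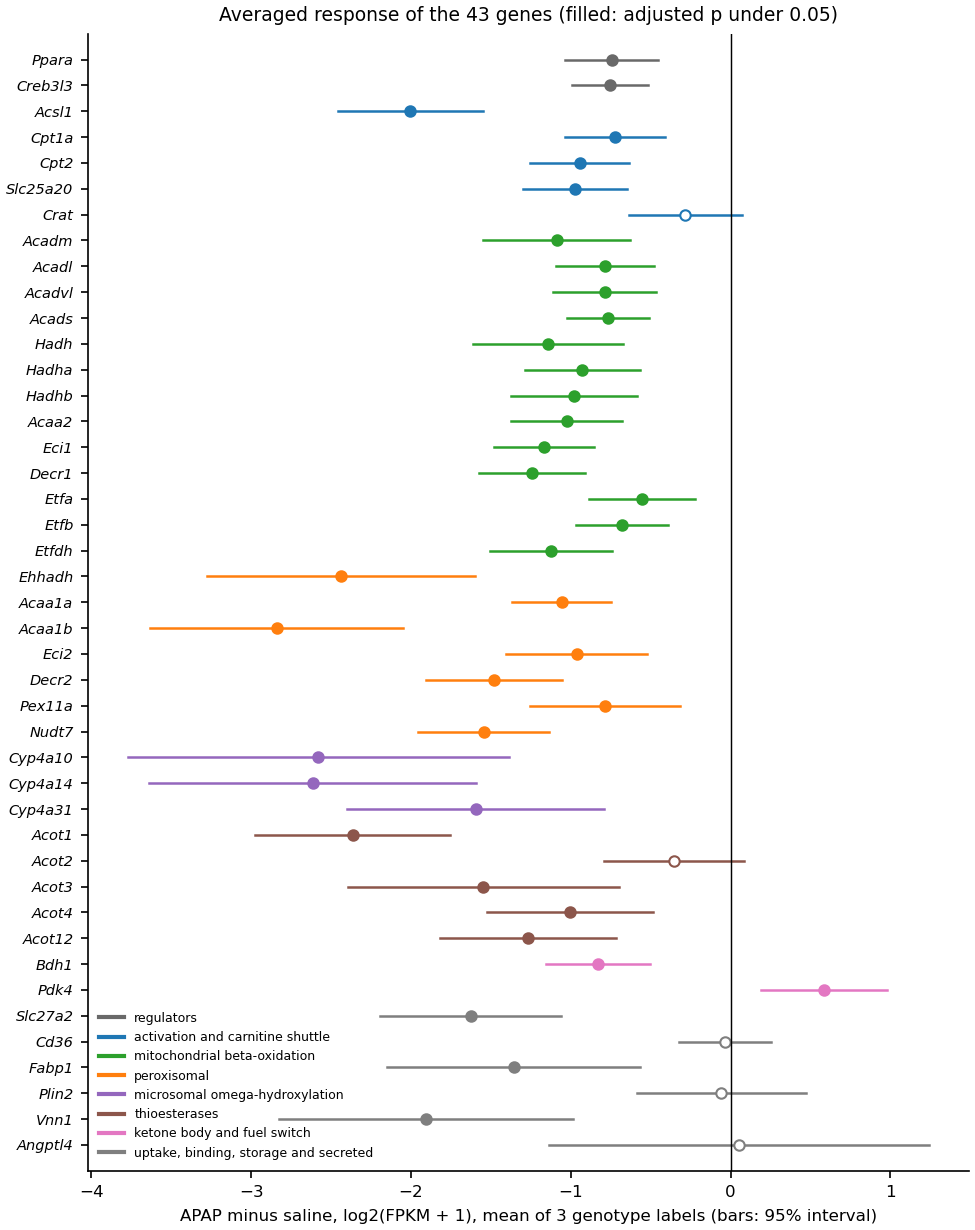
Averaged change of each of the 43 genes between APAP and saline on the log2(FPKM + 1) scale, adjusted for perfusion (points), with 95% intervals (bars), coloured by class. Filled points have an adjusted p under 0.05. All mitochondrial, peroxisomal and microsomal points lie left of 0, and Pdk4 is the 1 filled point to the right.

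Markers of other cells moved in the same libraries. Monocyte and macrophage markers were higher in 9 of 13 tested genes in the averaged response, and their summed level was 83.6 to 117 FPKM in WT saline and 92.9 to 147 in Het saline, against 108 to 447 in WT APAP, 325 to 524 in Het APAP and 78.6 to 189 in OE APAP. Hepatocyte markers were lower in 4 of 12 genes (median -0.274), and pericentral hepatocyte markers in 7 of 9 tested genes, their sum running from 4263 to 4369 FPKM in Het saline and 3249 to 3304 in WT saline to 174 to 658 in Het APAP and 415 to 1140.4 in WT APAP. Pericentral sums in OE overlapped, at 1315 to 5296 FPKM under saline and 827 to 1506 after APAP. Of 10 periportal hepatocyte markers 5 were lower and 1 higher, with a median of -0.47. Of 4 tested neutrophil markers 3 were higher, and of 10 stellate cell and fibroblast markers 5 were higher and 2 lower. Limma called 0 of 10 Kupffer cell markers, 2 of them having an unadjusted p under 0.05, and endothelial markers were higher in 1 and lower in 2 of 10. No marker list had a gene at 0 in all 17 libraries. In bulk liver, fewer cells of a type and less RNA per cell cannot be told apart, and the part of these cells in the fall was not tested.

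Both regulators fell. Ppara is the fatty acid receptor itself. Under saline, Ppara read 41.7, 48.0 and 58.4 FPKM in WT, 46.6 in WT IG, 65.1 and 56.4 in Het and 47.6 and 51.8 in OE. After APAP, Ppara read 28.2, 40.7 and 28.7 FPKM in WT, 29.1, 26.5 and 24.2 in Het, 51.7 and 35.0 in OE and 33.0 in OE 300. All WT APAP and Het APAP libraries lay below every saline library of their label, whereas OE APAP 1 lay between the 2 OE saline libraries. Ppara fell by 0.74 ± 0.13 (SE) on the log2 scale in the averaged response (adjusted p = 0.00242). Creb3l3 is a transcription factor of the endoplasmic reticulum that works with Ppara in fasting. Creb3l3 stood at 101, 100.3 and 93.0 FPKM in the WT saline libraries, 93.9 in the WT IG library, 134 and 109 in Het and 104 and 117 in OE. With APAP, Creb3l3 was at 63.7, 60.3 and 58.2 FPKM in WT, 51.9, 66.5 and 53.3 in Het, 96.3 and 78.1 in OE and 82.5 in OE 300. Under each of the 3 labels, every APAP library lay below every saline library. Creb3l3 had an averaged change of -0.75 ± 0.11 (SE; adjusted p = 0.000834).

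In activation and the carnitine shuttle, 4 of 5 genes fell. Acsl1 is the main acyl-CoA synthetase of liver. Saline values of Acsl1 were 215, 235 and 217 FPKM in WT, 167 in WT IG, 339.5 and 315 in Het and 163 and 294 in OE. APAP livers had Acsl1 at 105, 81.8 and 51.3 FPKM in WT, 40.2, 31.6 and 31.4 in Het, 156 and 85.1 in OE and 153 in OE 300. Groups did not overlap under any label, and all 3 Het APAP libraries lay below all 3 WT APAP libraries. On average Acsl1 fell by 2.00 ± 0.21 (SE; adjusted p = 0.000177). Cpt1a makes acylcarnitine at the outer mitochondrial membrane and limits the rate of entry. Under saline, Cpt1a read 65.6, 63.3 and 68.1 FPKM in WT, 56.1 in WT IG, 94.0 and 80.8 in Het and 97.4 and 107 in OE. After APAP, Cpt1a read 60.3, 49.1 and 32.6 FPKM in WT, 35.5, 31.4 and 31.1 in Het, 100.2 and 81.0 in OE and 64.8 in OE 300. WT and Het groups did not overlap, though WT APAP 1 came close to the WT saline range, and OE APAP 1 lay inside the OE saline range. Cpt1a fell by 0.72 ± 0.14 (SE) on the log2 scale in the averaged response (adjusted p = 0.00429). Cpt2 returns the acyl group to coenzyme A inside the mitochondrion. Cpt2 stood at 52.8, 55.7 and 45.0 FPKM in the WT saline libraries, 38.3 in the WT IG library, 79.3 and 75.4 in Het and 50.1 and 75.5 in OE. With APAP, Cpt2 was at 29.6, 33.3 and 24.6 FPKM in WT, 24.6, 20.3 and 19.7 in Het, 67.9 and 46.8 in OE and 48.1 in OE 300. WT and Het APAP libraries were all below their saline libraries, and OE APAP 1 was within the OE saline range. Cpt2 had an averaged change of -0.94 ± 0.14 (SE; adjusted p = 0.00106).

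Slc25a20 carries acylcarnitine across the inner membrane. Slc25a20 read 46.6 to 52.6 FPKM in WT saline, 70.1 to 74.9 in Het saline and 40.8 to 70.0 in OE saline, against 23.4 to 36.1, 25.4 to 36.4 and 33.7 to 48.2 after APAP. It was below saline without overlap in WT and Het. On average Slc25a20 fell by 0.97 ± 0.15 (SE; adjusted p = 0.00116). Crat, which moves acetyl groups between carnitine and coenzyme A, was not called. Crat read 7.35 to 10.3 FPKM in WT saline, 19.2 to 24.2 in Het saline and 12.9 to 20.0 in OE saline, against 7.53 to 13.4, 9.73 to 11.1 and 13.6 to 16.9 after APAP. Its highest libraries were Het saline 2, OE 300 and OE saline 2. Crat changed by -0.28 ± 0.16 (SE; adjusted p = 0.236) on average.

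Mitochondrial beta-oxidation begins with the acyl-CoA dehydrogenases, and all 4 on the list fell. Acadm is the medium-chain enzyme. Saline values of Acadm were 178, 193 and 167 FPKM in WT, 117 in WT IG, 319 and 297 in Het and 167 and 284 in OE. APAP livers had Acadm at 127, 122 and 59.8 FPKM in WT, 87.4, 74.8 and 73.8 in Het, 251 and 151 in OE and 175 in OE 300. Het saline 1, Het saline 2, OE saline 2 and OE APAP 1 were its highest libraries, in that order, and WT APAP 3 its lowest. Acadm fell by 1.09 ± 0.21 (SE) on the log2 scale in the averaged response (adjusted p = 0.00368). Acads is the short-chain enzyme. Under saline, Acads read 73.6, 66.6 and 83.0 FPKM in WT, 70.5 in WT IG, 67.8 and 61.0 in Het and 65.1 and 61.0 in OE. After APAP, Acads read 39.9, 46.5 and 32.7 FPKM in WT, 33.0, 27.7 and 31.5 in Het, 59.0 and 47.0 in OE and 59.9 in OE 300. Its highest library was WT saline 3, not a Het or OE library, and no label's groups overlapped. Acads had an averaged change of -0.76 ± 0.12 (SE; adjusted p = 0.00116). Acadl and Acadvl act on long and very long chains. Acadl read 46.6 to 59.4 FPKM in WT saline, 69.3 to 71.0 in Het saline and 46.1 to 80.5 in OE saline, against 30.8 to 49.3, 27.7 to 45.4 and 37.4 to 74.1 after APAP. The WT groups of Acadl overlapped. Acadvl read 179 to 182 FPKM in WT saline, 206 to 225 in Het saline and 145 to 221 in OE saline, against 88.2 to 123, 88.3 to 108 and 123 to 188 after APAP. Acadl changed by -0.79 ± 0.14 (SE; adjusted p = 0.00242) and Acadvl by -0.79 ± 0.15 (SE; adjusted p = 0.00310).

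The trifunctional protein, made by Hadha and Hadhb, carries out the last steps on long chains. Hadha stood at 148, 162 and 130.3 FPKM in the WT saline libraries, 115 in the WT IG library, 218 and 235 in Het and 141 and 171 in OE. With APAP, Hadha was at 108, 107 and 68.0 FPKM in WT, 75.1, 62.2 and 67.6 in Het, 164 and 97.8 in OE and 132 in OE 300. Hadha was low in Het APAP and in WT APAP 3, and OE APAP 1 lay within the OE saline range. On average Hadha fell by 0.93 ± 0.17 (SE; adjusted p = 0.00241). Saline values of Hadhb were 107, 127 and 104 FPKM in WT, 86.0 in WT IG, 188 and 199.7 in Het and 122 and 169.6 in OE. APAP livers had Hadhb at 90.1, 75.5 and 48.3 FPKM in WT, 62.1, 65.7 and 58.5 in Het, 164 and 85.3 in OE and 129 in OE 300. Hadhb was likewise below saline without overlap in WT and Het. Hadhb fell by 0.98 ± 0.18 (SE) on the log2 scale in the averaged response (adjusted p = 0.00292). Of the windows of 101 bases in the Hadhb transcript, 52.6% also occur in the predicted genes Gm13910 and Gm9108, so its level is uncertain where the authors' counting could split reads.

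Hadh is the short-chain hydroxyacyl-CoA dehydrogenase. Under saline, Hadh read 136, 144 and 153 FPKM in WT, 110.2 in WT IG, 148 and 161 in Het and 144 and 152 in OE. After APAP, Hadh read 72.6, 90.2 and 45.5 FPKM in WT, 59.5, 27.5 and 45.8 in Het, 133 and 82.7 in OE and 139 in OE 300. APAP libraries lay below saline libraries under all 3 labels. Hadh had an averaged change of -1.14 ± 0.22 (SE; adjusted p = 0.00327). Acaa2 is the mitochondrial thiolase. Acaa2 stood at 651, 620.5 and 616 FPKM in the WT saline libraries, 536 in the WT IG library, 672 and 649 in Het and 507 and 504 in OE. With APAP, Acaa2 was at 326, 353 and 219 FPKM in WT, 263, 190.5 and 191 in Het, 428 and 328 in OE and 478 in OE 300. Here too no label's groups overlapped, and OE saline lay below WT saline. On average Acaa2 fell by 1.03 ± 0.16 (SE; adjusted p = 0.00118).

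Eci1 and Decr1 handle double bonds, the first as an isomerase and the second as the dienoyl-CoA reductase. Saline values of Eci1 were 93.6, 92.5 and 84.4 FPKM in WT, 69.0 in WT IG, 131 and 132 in Het and 77.3 and 110.4 in OE. APAP livers had Eci1 at 46.8, 46.4 and 34.8 FPKM in WT, 36.4, 41.5 and 29.8 in Het, 92.8 and 58.9 in OE and 78.6 in OE 300. Het saline was highest and Het APAP lowest as groups, and the OE groups overlapped. Eci1 fell by 1.17 ± 0.14 (SE) on the log2 scale in the averaged response (adjusted p = 0.000437). Under saline, Decr1 read 71.2, 76.7 and 61.0 FPKM in WT, 53.0 in WT IG, 107 and 108 in Het and 64.1 and 80.5 in OE. After APAP, Decr1 read 35.5, 38.4 and 26.5 FPKM in WT, 25.7, 31.9 and 23.5 in Het, 67.6 and 39.0 in OE and 61.3 in OE 300. Decr1 showed the largest averaged fall of the 13 mitochondrial enzymes. Decr1 had an averaged change of -1.24 ± 0.15 (SE; adjusted p = 0.000414).

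The electron transfer flavoprotein (Etfa, Etfb) and its oxidoreductase (Etfdh) pass electrons from the dehydrogenases to ubiquinone. Etfa stood at 102, 111 and 159 FPKM in the WT saline libraries, 144 in the WT IG library, 98.9 and 114 in Het and 119 and 138 in OE. With APAP, Etfa was at 121, 105 and 70.1 FPKM in WT, 60.0, 76.0 and 59.6 in Het, 152 and 94.9 in OE and 160.1 in OE 300. Etfa was the least changed of the mitochondrial list, its WT groups overlapped, and its highest library was OE 300. On average Etfa fell by 0.56 ± 0.15 (SE; adjusted p = 0.0203). This call was lost without OE saline 2, WT saline 3, Het saline 2 or OE APAP 2 (-0.62 to -0.46, adjusted p up to 0.152), and with no filter on low values, with no perfusion term, with quantile normalisation or without both OE saline 2 and OE APAP 1 (-0.62 to -0.27, adjusted p up to 0.138). Saline values of Etfb were 222, 189 and 243 FPKM in WT, 218 in WT IG, 262 and 240.3 in Het and 253 and 257 in OE. APAP livers had Etfb at 156, 164 and 122 FPKM in WT, 115, 136 and 94.2 in Het, 225 and 212 in OE and 247 in OE 300. Etfb did not overlap between saline and APAP under any label, and 65.2% of its windows of 101 bases also occur in the predicted gene Gm45233, so its level is uncertain. Etfb fell by 0.68 ± 0.13 (SE) on the log2 scale in the averaged response (adjusted p = 0.00392). Under saline, Etfdh read 105, 116 and 103 FPKM in WT, 83.7 in WT IG, 157 and 159.8 in Het and 89.2 and 145 in OE. After APAP, Etfdh read 65.8, 67.9 and 37.3 FPKM in WT, 44.1, 48.8 and 42.1 in Het, 128 and 74.5 in OE and 91.2 in OE 300. Etfdh was lowest in WT APAP 3 and Het APAP 3, and highest in Het saline. Etfdh had an averaged change of -1.12 ± 0.18 (SE; adjusted p = 0.00124).

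Among the peroxisomal genes, Acaa1b fell most of all 43 genes and Ehhadh came next in its class. Ehhadh is the peroxisomal bifunctional enzyme and a classical Ppara target. Ehhadh stood at 90.3, 86.5 and 111 FPKM in the WT saline libraries, 71.6 in the WT IG library, 371 and 324 in Het and 92.7 and 249 in OE. With APAP, Ehhadh was at 58.9, 47.7 and 18.1 FPKM in WT, 16.0, 36.3 and 10.8 in Het, 199 and 48.9 in OE and 82.8 in OE 300. Both Het saline libraries, OE saline 2 and OE APAP 1 were above the rest, and Het APAP 3 was lowest. On average Ehhadh fell by 2.44 ± 0.38 (SE; adjusted p = 0.00170). Acaa1a and Acaa1b are peroxisomal thiolases on chromosome 9. Saline values of Acaa1a were 64.7, 54.0 and 65.9 FPKM in WT, 60.9 in WT IG, 83.9 and 73.5 in Het and 61.8 and 89.0 in OE. APAP livers had Acaa1a at 31.8, 35.2 and 30.2 FPKM in WT, 27.8, 22.5 and 21.1 in Het, 80.2 and 46.5 in OE and 38.7 in OE 300. Acaa1a was lower in every Het APAP library than in any WT APAP library. Acaa1a fell by 1.06 ± 0.14 (SE) on the log2 scale in the averaged response (adjusted p = 0.000604). Under saline, Acaa1b read 229, 281 and 262 FPKM in WT, 208 in WT IG, 502 and 451 in Het and 159.5 and 248 in OE. After APAP, Acaa1b read 46.7, 90.2 and 24.4 FPKM in WT, 30.4, 26.9 and 16.7 in Het, 159 and 41.3 in OE and 108 in OE 300. For Acaa1b the APAP libraries lay below saline under all 3 labels, and the Het saline mean was 19.3-fold the Het APAP mean. Acaa1b had an averaged change of -2.84 ± 0.36 (SE; adjusted p = 0.000635). The pair share sequence: 21.4% of the windows of 101 bases in Acaa1a and 22.4% in Acaa1b occur in both, so the split between them is uncertain.

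Decr2 is the peroxisomal dienoyl-CoA reductase. Decr2 stood at 95.2, 101 and 86.5 FPKM in the WT saline libraries, 77.0 in the WT IG library, 117 and 109.7 in Het and 88.4 and 118 in OE. With APAP, Decr2 was at 49.4, 43.8 and 25.4 FPKM in WT, 24.3, 28.8 and 19.5 in Het, 90.8 and 46.2 in OE and 72.6 in OE 300. WT and Het groups did not overlap, and OE APAP 1 lay just above OE saline 1. On average Decr2 fell by 1.48 ± 0.20 (SE; adjusted p = 0.000567). Nudt7, a peroxisomal hydrolase that breaks down coenzyme A, had a different order of libraries. Saline values of Nudt7 were 926, 864 and 722 FPKM in WT, 782 in WT IG, 613 and 764 in Het and 590.0 and 279 in OE. APAP livers had Nudt7 at 340.3, 233 and 199 FPKM in WT, 82.4, 42.7 and 72.8 in Het, 222 and 423 in OE and 573 in OE 300. WT saline was highest, OE saline 2 and OE APAP 1 were low beside OE saline 1 and OE APAP 2, and all 3 Het APAP libraries lay below all 3 WT APAP libraries. Nudt7 fell by 1.55 ± 0.19 (SE) on the log2 scale in the averaged response (adjusted p = 0.000414). Eci2, an isomerase, and Pex11a, which promotes peroxisome division, also fell. Eci2 read 96.5 to 130.5 FPKM in WT saline, 147 to 166 in Het saline and 79.2 to 142 in OE saline, against 39.3 to 64.8, 48.1 to 95.3 and 88.1 to 101 after APAP. Pex11a read 10.1 to 14.7 FPKM in WT saline, 16.1 to 17.0 in Het saline and 6.67 to 19.5 in OE saline, against 6.84 to 10.3, 6.12 to 10.2 and 7.29 to 9.70 after APAP. Pex11a overlapped between the WT groups. Eci2 changed by -0.96 ± 0.20 (SE; adjusted p = 0.00570) and Pex11a by -0.79 ± 0.21 (SE; adjusted p = 0.0209). The call of Eci2 was lost without OE saline 2 (-0.78, adjusted p = 0.0556), and without both OE saline 2 and OE APAP 1 (-0.78, adjusted p = 0.0606). That of Pex11a was lost without Het APAP 1, OE saline 2 or Het saline 1 (-0.77 to -0.41, adjusted p up to 0.172), and with no filter on low values or without both OE saline 2 and OE APAP 1 (-0.79 to -0.41, adjusted p up to 0.152).

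The 3 Cyp4a genes lie in 1 cluster on chromosome 4 of GRCm38, Cyp4a14 at chr4:115486200-115496142, Cyp4a10 at chr4:115518264-115533649 and Cyp4a31 at chr4:115563649-115579015. They encode fatty acid omega-hydroxylases. Under saline, Cyp4a14 read 309, 301 and 315 FPKM in WT, 165 in WT IG, 1581 and 1269 in Het and 204 and 1755 in OE. After APAP, Cyp4a14 read 99.4, 211 and 74.6 FPKM in WT, 70.9, 107 and 91.9 in Het, 1350.3 and 141 in OE and 346 in OE 300. Libraries fell into a high range, holding both Het saline libraries, OE saline 2 and OE APAP 1, and a low range holding all others. Cyp4a14 had an averaged change of -2.62 ± 0.46 (SE; adjusted p = 0.00312). Cyp4a10 stood at 177, 141 and 175 FPKM in the WT saline libraries, 129 in the WT IG library, 1147 and 1094 in Het and 104 and 1299.6 in OE. With APAP, Cyp4a10 was at 64.9, 107 and 48.7 FPKM in WT, 68.8, 69.8 and 60.7 in Het, 1002 and 80.6 in OE and 159 in OE 300. The same 4 libraries were the highest for Cyp4a10, and the lowest of them was several times the highest of the rest. On average Cyp4a10 fell by 2.58 ± 0.54 (SE; adjusted p = 0.00716). Saline values of Cyp4a31 were 1.59, 0.897 and 1.46 FPKM in WT, 2.16 in WT IG, 9.54 and 11.4 in Het and 1.64 and 10.5 in OE. APAP livers had Cyp4a31 at 0.720, 1.41 and 0.173 FPKM in WT, 0.769, 3.30 and 0.973 in Het, 9.86 and 0.595 in OE and 1.68 in OE 300. Cyp4a31, a far less abundant gene per length, was again highest in those 4 libraries, and its WT groups overlapped. Cyp4a31 fell by 1.60 ± 0.37 (SE) on the log2 scale in the averaged response (adjusted p = 0.0108). Windows of 101 bases shared with Cyp4a32 and each other made up 12.5% of Cyp4a10 and 8.05% of Cyp4a31, so both are uncertain. Without OE saline 2 and OE APAP 1 the averaged changes were -2.09 for Cyp4a14, -1.89 for Cyp4a10 and -1.32 for Cyp4a31, all 3 called. With a single library left out, the call of Cyp4a10 was lost without OE saline 2 or OE APAP 2 (-1.90 to -1.89, adjusted p up to 0.0682). That of Cyp4a31 was lost without OE saline 2 or OE APAP 2 (-1.32 to -1.11, adjusted p up to 0.0993), and with no perfusion term (-1.02, adjusted p = 0.110).

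**Figure D2:**
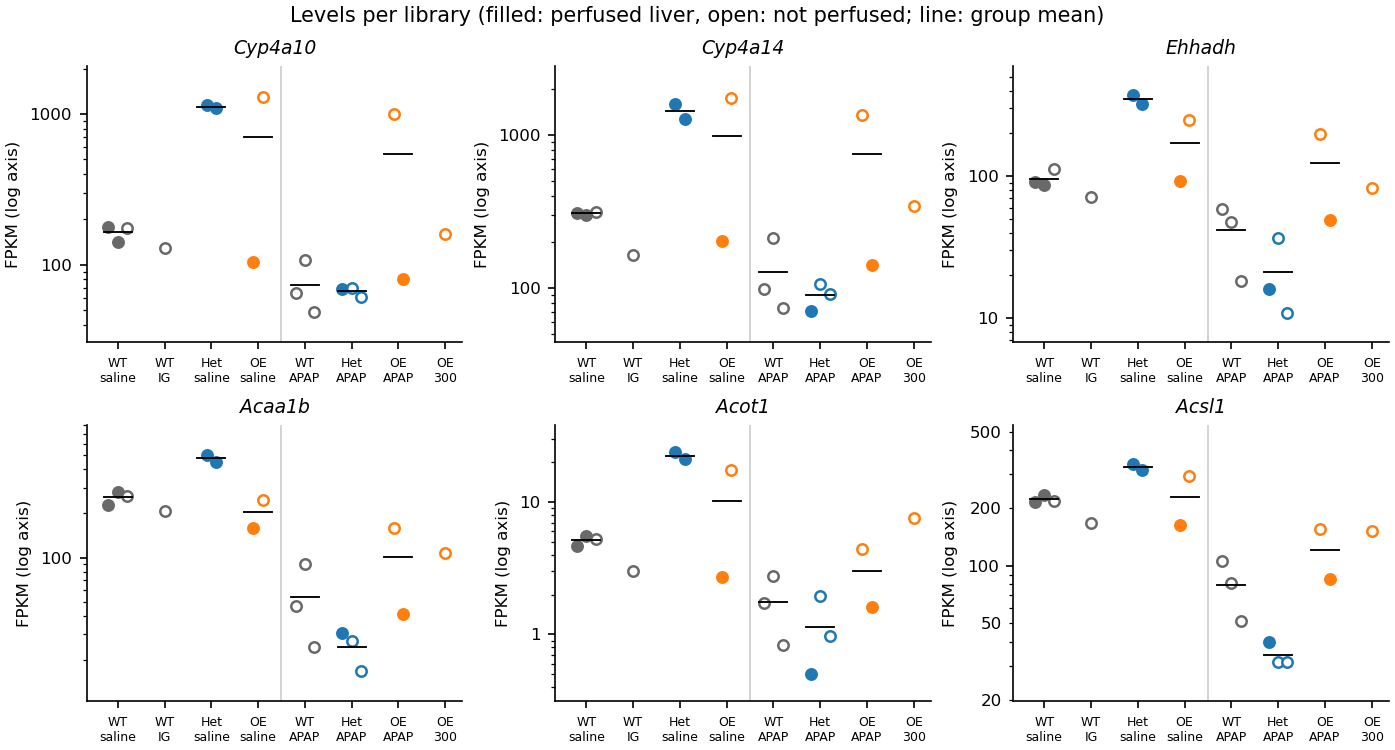
FPKM (log axis) of Cyp4a10, Cyp4a14, Ehhadh, Acaa1b, Acot1 and Acsl1 in each of the 17 libraries by label group; filled points are perfused livers, open points are not, and lines are group means. For Cyp4a10 the Het saline points are at 1094 and 1147 FPKM, beside OE saline 2 at 1299.6 and OE APAP 1 at 1002.

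Acyl-CoA thioesterases release free fatty acids from coenzyme A, and 4 of 5 fell. Acot1 to Acot4 lie together on chromosome 12, from chr12:83987861-83993873 (Acot2) to chr12:84052144-84060402 (Acot3). Under saline, Acot1 read 4.63, 5.52 and 5.24 FPKM in WT, 3.04 in WT IG, 23.9 and 21.0 in Het and 2.72 and 17.5 in OE. After APAP, Acot1 read 1.73, 2.75 and 0.829 FPKM in WT, 0.502, 1.96 and 0.982 in Het, 4.43 and 1.60 in OE and 7.52 in OE 300. Acot1, the cytosolic form, was highest in Het saline and OE saline 2, and WT and Het groups did not overlap. Acot1 had an averaged change of -2.36 ± 0.28 (SE; adjusted p = 0.000450). Acot12 hydrolyses acetyl-CoA in the cytosol. Acot12 stood at 35.0, 43.2 and 29.5 FPKM in the WT saline libraries, 26.2 in the WT IG library, 47.8 and 41.5 in Het and 30.5 and 60.7 in OE. With APAP, Acot12 was at 26.3, 18.9 and 10.1 FPKM in WT, 13.1, 15.5 and 14.5 in Het, 41.1 and 17.1 in OE and 26.7 in OE 300. OE APAP 1 lay between the OE saline libraries, and WT APAP 3 was lowest. On average Acot12 fell by 1.27 ± 0.25 (SE; adjusted p = 0.00479), a call lost without OE APAP 2 (adjusted p = 0.0555).

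Acot2 is mitochondrial, and Acot3 and Acot4 are peroxisomal. Acot2 read 1.17 to 1.26 FPKM in WT saline, 1.92 to 2.39 in Het saline and 0.756 to 4.06 in OE saline, against 1.03 to 2.36, 1.58 to 3.60 and 0.498 to 2.63 after APAP. Acot3 read 0.471 to 2.11 FPKM in WT saline, 3.49 to 4.75 in Het saline and 1.03 to 9.16 in OE saline, against 0.0318 to 1.13, 0.128 to 0.681 and 0.315 to 9.11 after APAP. Acot3 and Acot4 were highest in OE saline 2 and OE APAP 1, with Het saline next. Acot4 read 2.00 to 3.22 FPKM in WT saline, 5.92 to 6.54 in Het saline and 2.27 to 9.17 in OE saline, against 2.14 to 3.01, 1.27 to 2.40 and 1.46 to 7.74 after APAP. Acot3 changed by -1.55 ± 0.38 (SE; adjusted p = 0.0156) and Acot4 by -1.01 ± 0.24 (SE; adjusted p = 0.0108), whereas Acot2 changed by -0.35 ± 0.20 (SE; adjusted p = 0.230) and was not called. Acot2 was called without WT saline 3 (-0.61, adjusted p = 0.0424). The call of Acot3 was lost without OE saline 2 or OE APAP 2 (-1.22 to -1.01, adjusted p up to 0.137), and with no perfusion term (-0.95, adjusted p = 0.150), and that of Acot4 without OE saline 2 or OE APAP 2 (-0.75 to -0.69, adjusted p up to 0.114), and with no perfusion term (-0.62, adjusted p = 0.130). These are low values, where the log2(FPKM + 1) scale understates a change, and shared windows of 101 bases made up 21.7% of Acot1, 17.0% of Acot2 and 14.3% of Acot3, so all of them are uncertain.

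Bdh1 interconverts the main ketone bodies in mitochondria. Saline values of Bdh1 were 98.6, 94.8 and 97.8 FPKM in WT, 90.9 in WT IG, 126 and 113 in Het and 98.4 and 79.3 in OE. APAP livers had Bdh1 at 65.7, 71.1 and 41.3 FPKM in WT, 48.4, 38.1 and 32.4 in Het, 72.4 and 64.1 in OE and 63.3 in OE 300. APAP libraries were below saline libraries under all 3 labels. Bdh1 fell by 0.83 ± 0.15 (SE) on the log2 scale in the averaged response (adjusted p = 0.00249). Pdk4, a kinase that blocks pyruvate dehydrogenase and so spares glucose, was the 1 gene that rose. Under saline, Pdk4 read 0.564, 0.893 and 0.572 FPKM in WT, 0.881 in WT IG, 0.590 and 0.577 in Het and 0.769 and 0.709 in OE. After APAP, Pdk4 read 1.46, 2.07 and 1.49 FPKM in WT, 1.63, 4.45 and 2.79 in Het, 0.261 and 0.996 in OE and 1.97 in OE 300. WT APAP and Het APAP lay above their saline libraries, but OE APAP 1 was the lowest of all 17 and OE APAP 2 only just above the OE saline range. Pdk4 rose by 0.58 ± 0.18 (SE; adjusted p = 0.0353) on average. This call was lost without WT saline 1, Het APAP 3, WT APAP 2, OE saline 2, Het saline 1, WT saline 3, Het saline 2 or OE APAP 2 (0.35 to 0.59, adjusted p up to 0.313), and with no filter on low values, with quantile normalisation or without both OE saline 2 and OE APAP 1 (0.48 to 0.58, adjusted p up to 0.104).

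Of the 6 genes for uptake, binding, storage and secretion, 3 fell. Slc27a2 takes up and activates long and very long chains. Slc27a2 stood at 397, 457 and 386 FPKM in the WT saline libraries, 341 in the WT IG library, 676 and 701 in Het and 407 and 842 in OE. With APAP, Slc27a2 was at 250.3, 226 and 113 FPKM in WT, 117, 88.7 and 90.7 in Het, 656 and 273 in OE and 303 in OE 300. OE saline 2 was highest, and Het APAP and WT APAP 3 lowest. Slc27a2 had an averaged change of -1.63 ± 0.26 (SE; adjusted p = 0.00134). Vnn1 is a pantetheinase of the cell surface and a Ppara target. Saline values of Vnn1 were 11.2, 15.9 and 7.42 FPKM in WT, 6.06 in WT IG, 41.2 and 30.9 in Het and 3.90 and 20.6 in OE. APAP livers had Vnn1 at 2.53, 9.09 and 2.88 FPKM in WT, 4.38, 4.10 and 2.50 in Het, 6.92 and 2.46 in OE and 5.88 in OE 300. Het saline was highest, and the WT groups overlapped. On average Vnn1 fell by 1.91 ± 0.42 (SE; adjusted p = 0.00899), a call lost without OE saline 2 or OE APAP 2 (-1.64 to -1.33, adjusted p up to 0.0867). Fabp1 is the abundant fatty acid binding protein of the hepatocyte cytosol, whose promoter window is printed above. Under saline, Fabp1 read 8228, 8410.4 and 7122 FPKM in WT, 8338 in WT IG, 8256 and 7292 in Het and 6698 and 3331 in OE. After APAP, Fabp1 read 3951, 4019 and 1317 FPKM in WT, 1339.5, 2667 and 839 in Het, 1764 and 4189 in OE and 5169 in OE 300. Like Nudt7 and unlike the Cyp4a genes, Fabp1 was low in OE saline 2 and OE APAP 1, and it was lowest in Het APAP 3. Fabp1 fell by 1.36 ± 0.36 (SE) on the log2 scale in the averaged response (adjusted p = 0.0187), a call lost without Het APAP 1, OE saline 2 or WT saline 3 (-1.53 to -1.14, adjusted p up to 0.0670), and with no filter on low values (-1.36, adjusted p = 0.0686).

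The remaining 3 were not called. Cd36 is a fatty acid translocase that macrophages and endothelium carry too. Cd36 stood at 17.3, 23.5 and 13.4 FPKM in the WT saline libraries, 11.3 in the WT IG library, 20.3 and 20.6 in Het and 27.2 and 23.6 in OE. With APAP, Cd36 was at 15.3, 16.3 and 18.6 FPKM in WT, 16.0, 16.4 and 18.2 in Het, 31.5 and 23.9 in OE and 33.2 in OE 300. Both OE APAP libraries lay above every WT APAP and Het APAP library, and OE 300 was highest. Plin2 coats lipid droplets. Saline values of Plin2 were 176, 189 and 153 FPKM in WT, 138 in WT IG, 189.6 and 148 in Het and 166 and 176 in OE. APAP livers had Plin2 at 142, 171 and 132 FPKM in WT, 147, 469 and 173 in Het, 147 and 161 in OE and 116 in OE 300. Het APAP 2 stood alone at the top, and the other 16 libraries ran from 116 to 189.6 FPKM. Angptl4 is a secreted inhibitor of lipoprotein lipase. Under saline, Angptl4 read 18.9, 39.0 and 21.7 FPKM in WT, 17.6 in WT IG, 40.3 and 12.5 in Het and 9.48 and 4.22 in OE. After APAP, Angptl4 read 21.6, 8.74 and 11.7 FPKM in WT, 12.5, 32.6 and 16.9 in Het, 2.21 and 25.9 in OE and 11.2 in OE 300. Angptl4 differed widely within groups, and OE saline 2 and OE APAP 1 were lowest. Cd36 changed by -0.04 ± 0.13 (SE; adjusted p = 0.870), Plin2 by -0.06 ± 0.24 (SE; adjusted p = 0.891) and Angptl4 by 0.05 ± 0.53 (SE; adjusted p = 0.958). Adipocytes carry these 3 genes as well. Of 8 adipocyte markers, Adipoq did not exceed 0.168 FPKM and Plin1 0.0849 in any library, and Fabp4 was the 1 that was tested. The markers summed to 6.26 to 7.16 FPKM in WT saline, 5.84 to 7.21 in Het saline and 5.93 to 11.6 in OE saline, against 10.8 to 17.2, 15.0 to 82.4 and 7.51 to 20.2 after APAP. Fabp4 ran from 5.28 to 81.6 FPKM over the libraries and no other marker on this list exceeded 2.23. The sums thus mostly follow Fabp4 and not the list as a whole. Fabp4 alone stood at 81.6 FPKM in Het APAP 2, the library in which Plin2 was highest, and its part in that value was not tested.

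**Figure D3:**
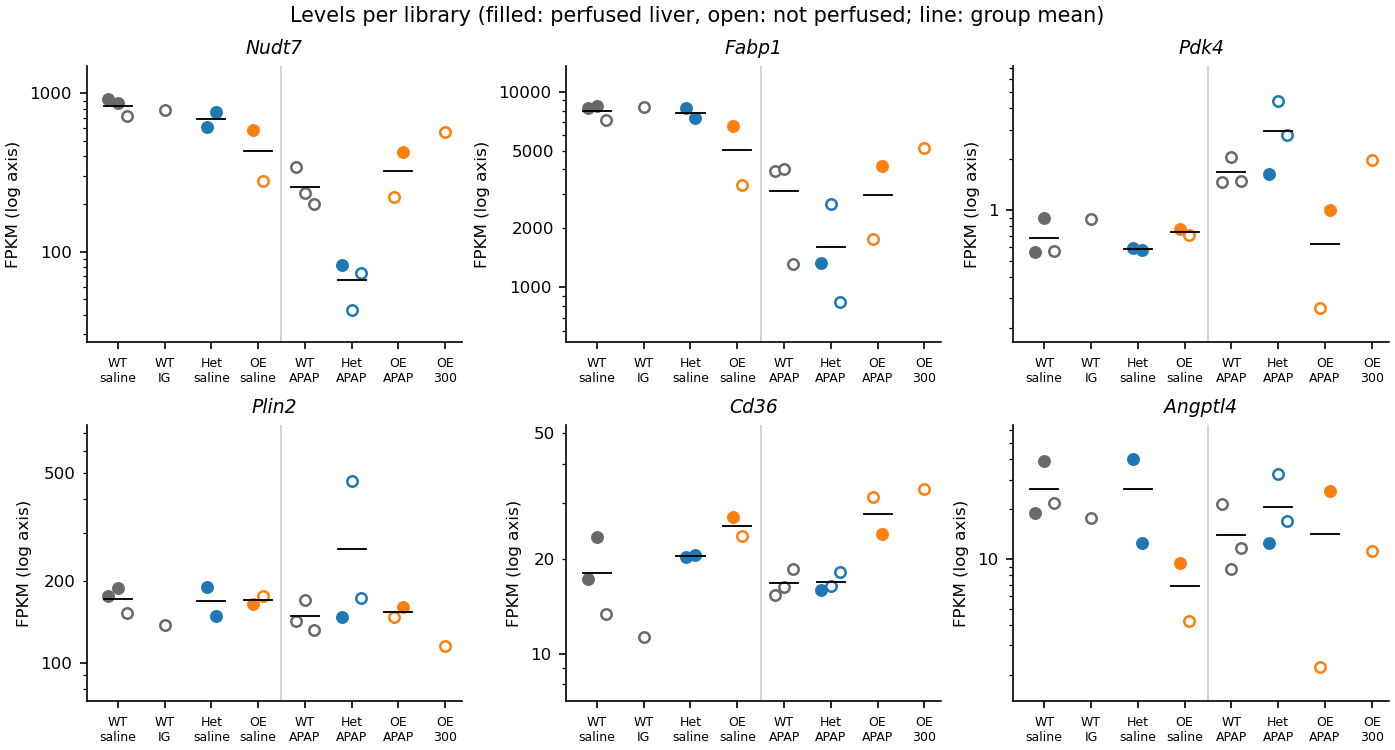
FPKM (log axis) of Nudt7, Fabp1, Pdk4, Plin2, Cd36 and Angptl4 in each library, drawn as for the Cyp4a genes (filled points perfused, lines group means). Nudt7 and Fabp1 are low in OE saline 2 and OE APAP 1, and Plin2 stands at 469 FPKM in Het APAP 2.

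Label by label, the fall was called for 16 of 43 genes in WT and 38 in Het, and for none in OE. In WT the median change was -1.03 and 0 genes were higher, against a background of 3.75% of all tested genes called lower and 2.17% higher. A further measure, groups that do not overlap, held for 30 of 43 genes lower in WT APAP, against 21.8% of all genes. Of the 43 genes, 35 had an unadjusted p under 0.05 in WT, a threshold at which all genes were not counted. Leaving out 1 library changed the count called, to 4 (WT saline 1), 8 (WT saline 2), 4 (WT saline 3) or 3 (WT APAP 3). It was 2 with no filter on low values, 8 with quantile normalisation and 9 when OE saline 2 and OE APAP 1 were both left out. The largest WT changes among called genes were those of Acaa1b (-2.70 ± 0.55), Acot1 (-1.83 ± 0.43) and Acsl1 (-1.70 ± 0.32).

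In Het, 38 genes fell and Pdk4 rose, with a median of -1.84 and a background of 13.3% lower and 9.21% higher. Het APAP lay below Het saline without overlap in 39 genes, against 33.4% of all genes, and above in 1, Pdk4, against 25.5%. Cyp4a10 changed by -5.11 ± 0.90, Cyp4a14 by -4.99 ± 0.78, Ehhadh by -4.76 ± 0.64 and Acaa1b by -4.54 ± 0.60 (± SE). These changes are adjusted for perfusion, and for each of these genes the plain difference of the printed values is smaller. Both Het saline livers were perfused, whereas Het APAP 2 and Het APAP 3 were not. All 13 mitochondrial genes fell, with a median of -1.78, all 7 peroxisomal with -2.35 and all 3 microsomal with -4.99. Within lane L008, 42 of 43 genes were lower in the 1 Het APAP library than in the mean of the 2 Het saline libraries (median -1.58), against 53.1% of all genes.

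In OE, limma called 0 of 43 genes, as it did 0 of all tested genes (0%). Of the 43, 2 had an unadjusted p under 0.05, a threshold at which all genes were not counted. The median was -0.32, with 41 of 43 estimates below 0. OE APAP lay below OE saline without overlap in 9 genes, against 10.7% of all genes: Creb3l3, Acsl1, Acads, Hadh, Acaa2, Etfb, Acaa1b, Bdh1 and Plin2. Compared within their lanes, the OE APAP library was below the OE saline library in 41 of 43 genes in L004 (median -0.248), against 51.9% of all genes, and in 38 in L008 (median -0.414), against 46.8%, with 1 library on each side and so no test.

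The difference between labels in the response was tested as an interaction, and limma called 0 of 43 genes for Het minus WT, OE minus WT and OE minus Het. The background at the same adjusted threshold was 0%, 0% and 0.0181% of all genes. Before adjustment, 22, 6 and 36 of the 43 genes had p under 0.05. How many of all genes passed that looser threshold was not counted, so these numbers have no background. The smallest adjusted p, for OE minus Het, was 0.0786. A fall called in Het and WT and not in OE was therefore not shown to differ between labels. The OE minus Het count was 15 without Het APAP 1 or without OE APAP 2, 9 without WT APAP 3, 2 without OE saline 2 and 1 without WT APAP 1. The Het minus WT count became 22 when libraries were weighted, and the OE minus Het count 10 when rare labels were pooled.

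**Figure D4:**
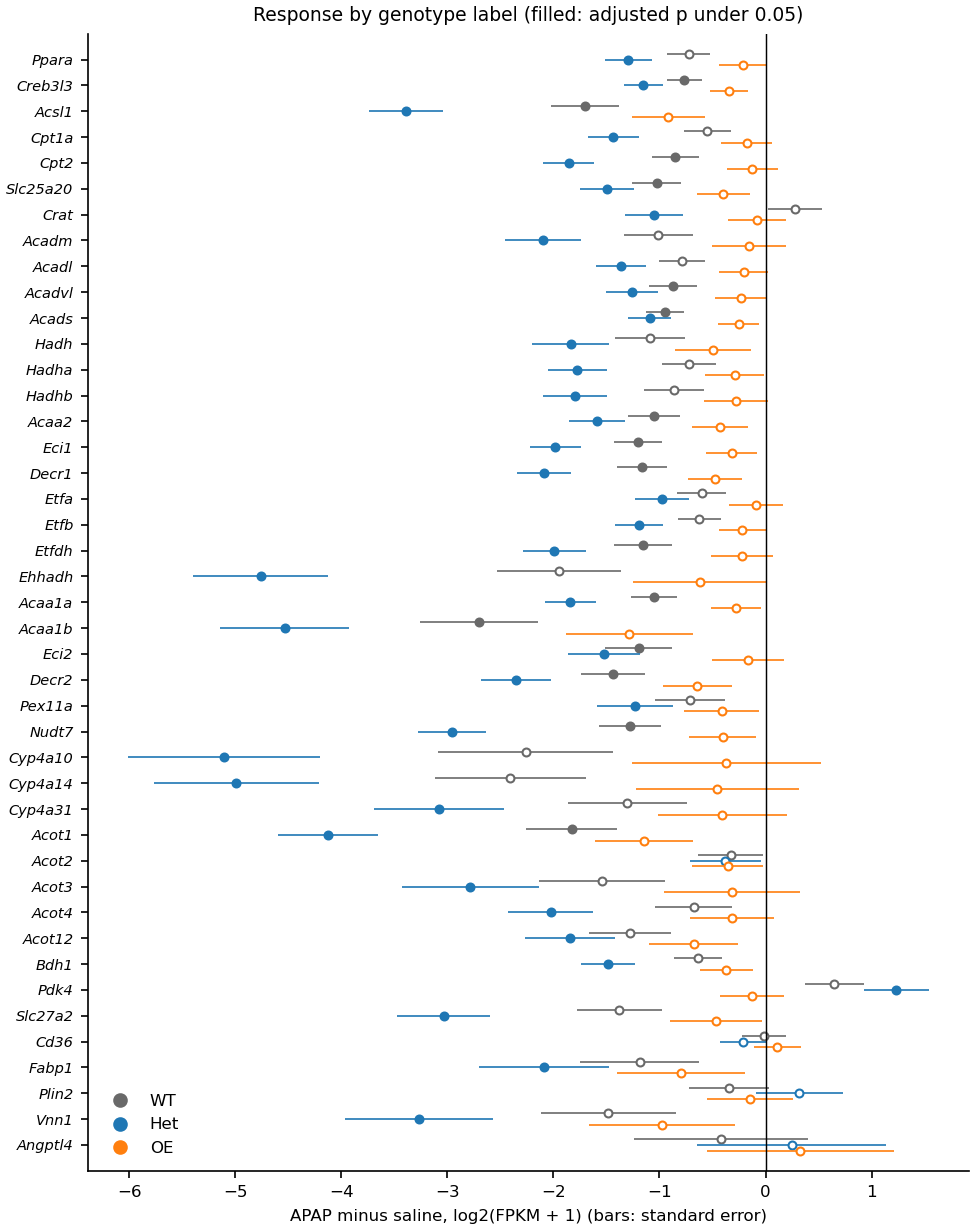
Change from saline to APAP on the log2(FPKM + 1) scale, adjusted for perfusion, for each of the 43 genes under each label (points, coloured by label). Bars are standard errors, and filled points have an adjusted p under 0.05. For 38 genes the Het point lies left of 0 and is filled, the Het point of Pdk4 is filled to the right of 0, and no OE point is filled.

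Under saline, Het libraries read higher than WT libraries for many of the genes, with no gene called. Het saline lay above WT saline without overlap in 30 of 43 genes, against 20.4% of all genes, and below in 0, against 19.2%. The median difference was 0.60 log2 units, and 2.75 for the 3 Cyp4a genes. As means, Cyp4a10 was 6.82-fold, Cyp4a14 4.62-fold, Ehhadh 3.62-fold and Acot1 4.38-fold the WT saline level. Limma called 0 of 43 genes here, with 0.0363% of all genes called. Of the 43, 19 had an unadjusted p under 0.05, a threshold at which all genes were not counted. Cyp4a10 differed by 3.29 ± 0.84 (SE; adjusted p = 0.219) and Acot1 by 2.25 ± 0.43 (SE; adjusted p = 0.157) in limma. These limma differences are adjusted for perfusion, whereas the folds of means above are not. The count was 1 without OE saline 1, 1 without WT APAP 3 and 1 without OE saline 2 and OE APAP 1, and 23 with array weights. The share of all genes called in each of these settings is not given. Among perfused livers alone, Het was higher in 36 of 43 genes (median 0.467), against 51.0% of all genes. The Het livers there were in lane L008 and of 11 weeks, and the WT livers in L007 and of 12 weeks. Label, lane and age thus cannot be told apart there. The summed pericentral hepatocyte markers were also higher in both Het saline libraries, at 4263 and 4369 FPKM, than in WT saline, at 3249 to 3304, and stood at 2728 in WT IG. Their part in the difference was not tested.

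The 2 OE saline libraries differed from each other. OE saline lay above WT saline without overlap in 6 genes, against 8.85% of all genes (Creb3l3, Cpt1a, Crat, Etfb, Cyp4a31 and Cd36), and below in 5, against 12% (Acads, Acaa2, Nudt7, Fabp1 and Angptl4). Limma called 0 of 43 genes, with 0.0363% of all genes called. Of the 43, 4 had an unadjusted p under 0.05, a threshold at which all genes were not counted. OE saline 1 was below the mean of the perfused WT saline libraries in 28 of 43 genes, against 52.5% of all genes. OE saline 2 was above the non-perfused WT saline 3 in 33, against 49.4%. Neither comparison was within a lane (L008 against L007, and L004 against L006), so label and lane cannot be told apart. Age also differed in the first, at 11 against 12 weeks. Cpt1a was high in both OE saline libraries and Cyp4a10 in OE saline 2 but not OE saline 1. Markers differed between the same 2 libraries, the pericentral sum being 1315 FPKM in OE saline 1 and 5296 in OE saline 2, the monocyte and macrophage sum 144 and 61.1, and the Kupffer cell sum 303 and 143. Their part in these values was not tested.

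After APAP, OE stood above Het in much of the pathway. Limma called 24 of 43 genes higher and 1 lower, Pdk4, with 8.87% of all tested genes higher and 5.12% lower, and a median difference of 0.95. By class, 11 of 13 mitochondrial genes were higher, 4 of 7 peroxisomal, 1 of 3 microsomal, 3 of 5 in activation and shuttle, both regulators, Bdh1, and Slc27a2 and Cd36 of the uptake genes. No thioesterase was called. The smallest adjusted p were those of Nudt7 (2.14 ± 0.29 SE, adjusted p = 0.00356) and Cpt1a (1.45 ± 0.22 SE, adjusted p = 0.00462). Acaa1a differed by 1.37 ± 0.22 (SE; adjusted p = 0.00471), Cpt2 by 1.37 ± 0.22 (SE; adjusted p = 0.00471) and Acsl1 by 1.77 ± 0.32 (SE; adjusted p = 0.00711). Among the rest, Slc27a2 differed by 2.16 ± 0.40 (SE; adjusted p = 0.00775), Ehhadh by 2.50 ± 0.58 (SE; adjusted p = 0.0201) and Cyp4a14 by 2.54 ± 0.71 (SE; adjusted p = 0.0391).

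Both OE APAP libraries lay above all 3 Het APAP libraries in 29 of 43 genes, against 23.4% of all genes, and below in 1, Pdk4, against 17.1%. Pdk4 differed by -1.25 ± 0.28 (SE; adjusted p = 0.0147). Without OE APAP 1, the shallowest library, 0 of 43 genes were called, with a median difference of 0.61 and 38 estimates above 0. Without OE APAP 2, 28 were called, with a median of 1.29. Each of these settings left 1 OE APAP library, whose spread was taken from the other groups. The shares of all genes called in them, and in the settings that follow, are not given. The count was also 0 with lane in place of perfusion, 11 with no filter on low values, 12 with quantile normalisation, 16 without Het APAP 2 and 12 without Het APAP 3. Within lane L008, where both livers were perfused, OE APAP 2 was above Het APAP 1 in 38 of 43 genes (median 0.552), against 53.1% of all genes. Among livers not perfused, OE APAP 1 of lane L004 was above the mean of Het APAP 2 and 3 of lane L005 in 38 (median 1.27), against 54.4%. Monocyte and macrophage markers moved the other way in the same contrast, 7 of 13 being lower in OE, and periportal hepatocyte markers were higher in 7 of 10, with sums of 4449 to 5146 FPKM in OE APAP and 1439 to 1917 in Het APAP. Their part in the result was not tested.

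Against WT APAP, Het APAP had 1 gene lower and none higher, with 0.0544% of all genes called, 0.0453% lower and 0.00906% higher. The gene was Nudt7, which differed by -2.19 ± 0.27 (SE; adjusted p = 0.0121); the call was lost without Het APAP 2 or WT APAP 1, and with no perfusion term. Within lane L005, the mean of Het APAP 2 and 3 differed from the WT APAP mean by -2.15 log2 units for Nudt7, in a set where 33 of 43 genes were lower, against 54.4% of all genes. Het APAP was below WT APAP without overlap in 3 genes, Acsl1, Acaa1a and Nudt7, against 11.4% of all genes. OE APAP differed from WT APAP in 0 of 43 genes by limma, with 0.0272% of all genes called. Of the 43, 25 had an unadjusted p under 0.05, a threshold at which all genes were not counted. OE APAP lay above WT APAP without overlap in 14 genes, among them Cpt1a, Cpt2, Acadm, Eci1, Decr1, Etfdh, Slc27a2 and Creb3l3, against 16.2% of all genes, and below in 1, Pdk4, against 11.1%.

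The OE library given 300 mg/kg, a single library with no test, was below OE saline 2 of the same lane in 36 of 43 genes (median -0.597), against 50.1% of all genes. Cyp4a10 differed there by -3.02 and Cyp4a14 by -2.34 log2 units. Against OE saline 1, of another lane, it was below in 21 and above in 22 (median 0.0241), against 49.3% and 50.7% of all genes. There the directions turned for Cyp4a10 (0.61) and Cyp4a14 (0.75). Nudt7 and Fabp1, which are low in OE saline 2, were higher in OE 300 than in OE saline 2 and lower than in OE saline 1.

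**Figure D5:**
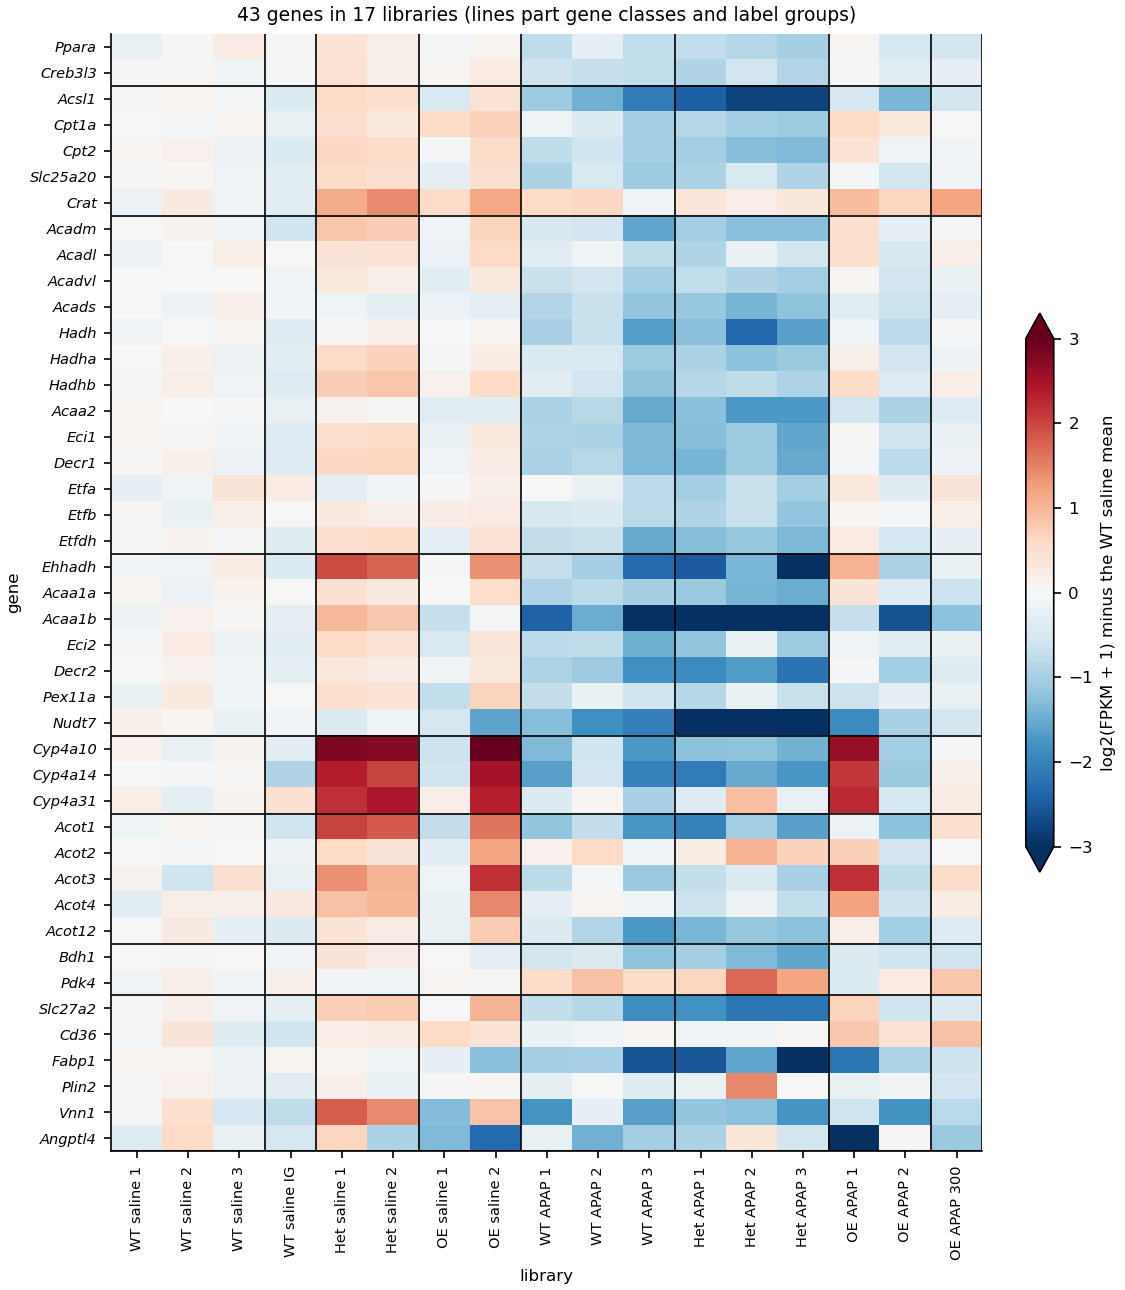
Each of the 43 genes (rows, by class) in each of the 17 libraries (columns, by label group) as log2(FPKM + 1) minus the WT saline mean; red is above and blue below. Het APAP columns are blue in nearly every row, and the Cyp4a rows are red in Het saline, OE saline 2 and OE APAP 1.

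Other genes of the pathway, from lists drawn up by role with earlier results of these data known, were set beside these. Of 38 tested enzymes of fatty acid oxidation outside the 43, 31 fell in the averaged response and 0 rose, with a median of -0.81. Of all tested genes, 13.4% were lower and 9.96% higher. The 4 with the smallest p were Cyp4a12a (-1.60 ± 0.16 SE, adjusted p = 0.000137) and Cyp4a12b (-1.79 ± 0.23 SE, adjusted p = 0.000581), omega-hydroxylases of the male liver, Abcd3 (-1.48 ± 0.18 SE, adjusted p = 0.000391), a peroxisomal membrane transporter, and Aldh3a2 (-2.41 ± 0.32 SE, adjusted p = 0.000716), a fatty aldehyde dehydrogenase. The summed level of all 41 enzymes on that list was 6759 to 7336 FPKM in WT saline and 7748 to 7893 in Het saline, against 2606 to 4252 in WT APAP, 2169 to 2825 in Het APAP and 4833 to 6579 in OE APAP. Of these 38, 22 were higher in OE APAP than in Het APAP and 0 lower, against 8.87% and 5.12% of all tested genes. Counts for this list under the other settings, in which the count of the 43 genes moved, are not given.

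Of 15 genes of peroxisome assembly, 13 fell and 0 rose (median -0.50), led by Pex19 (-0.77 ± 0.12 SE, adjusted p = 0.00108) and Pex5 (-0.55 ± 0.10 SE, adjusted p = 0.00239), which bring proteins to the peroxisome, Pex7 (-0.56 ± 0.10 SE, adjusted p = 0.00261) and Pex26 (-0.93 ± 0.17 SE, adjusted p = 0.00298). Of 12 tested other Ppara targets, 8 fell and 1 rose (median -0.85). Mgll (-1.70 ± 0.22 SE, adjusted p = 0.000516), a monoglyceride lipase, Retsat (-1.63 ± 0.23 SE, adjusted p = 0.000834) and Cyp4f15 (-0.99 ± 0.18 SE, adjusted p = 0.00269) fell, and Fgl1 (1.93 ± 0.23 SE, adjusted p = 0.000358), a secreted fibrinogen-like protein, rose. Among the receptor's partners and regulators, of 17 tested, 2 fell and 1 rose, with a median of -0.00316, where 13.4% of all genes were lower and 9.96% higher.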

How the data were processed

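Per the labels' protocols, total RNA of liver was made into stranded, paired-end libraries, of which there are 17. The submitters' processing notes name TopHat2 (2.0.9) and Cufflinks (2.2.1) with Cuffdiff, the demultiplexer bcl2fastq (2.17.1.14) and the build GRCm38; which annotation was used is not given in the sources used here. Each gene and library has a single deposited value, taken as the FPKM the authors made with Cufflinks, since no header names the unit. Read totals are not in that table, so relative depth was read from the steps of values under 0.1 FPKM, of which 62.4% to 83.5% lay within 0.03 log2 units of a ratio of whole fragments; no counting interval is given.

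Values were tested as log2(FPKM + 1) with limma 3.58.1 in R 4.3.3, with a mean for each of 8 label groups, a term for liver perfusion and 8 residual degrees of freedom. The fit took genes averaging at least 1 FPKM. Genes at 0 throughout a genotype and drug block with at least 10 FPKM elsewhere, and neighbours within 100 kb at 0 in the same blocks, were left out as failed estimates (205 genes, none of the 43). Adjusted p-values are Benjamini-Hochberg values over 11034 genes, called under 0.05, two-sided. The script was tested on simulated data. Gene positions are from GENCODE on GRCm38, and shared sequence was counted as windows of 101 bases, the read length.

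The members, lists and failed-estimate rule were chosen with earlier results of these data known. Values in every library are given for Ppara, Cpt1a and Pdk4, for the 2 genes of each class with the smallest p in the averaged response, and for genes that rose or were called between labels. Acaa1b, Cyp4a31, Fabp1, Plin2 and Angptl4 were added after their values were seen. Of other lists, up to 4 genes with the smallest p are named, except for the receptor's partners and regulators, given as counts because 1 item is not reported here. Alternatives covered the pseudocount, filter, perfusion and lane terms, normalisation, library weights, pooled rare labels, failed estimates and each library left out.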

Additional observations from a re-analysis of the deposited data

Results flagged for a closer look

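Pdk4 read 1.97 FPKM in the OE library given 300 mg/kg, which no comparison of the averaged response used, and 0.769 and 0.709 FPKM in the 2 OE saline libraries. It was singled out because that single library lay more than 1.5 times above the highest OE saline value. The OE libraries given 200 mg/kg read 0.261 and 0.996 FPKM. With 1 library at this dose the difference was not tested.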

How the results depend on the processing

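The count in the averaged response (38 of 43) stayed within 1.5 times of itself in every setting that gave a value, between 28 and 38 with 1 library left out (lowest without OE saline 2), as did that in Het (30 to 39). The OE response stayed at 0 in every one. The WT count of 16 was 2 with no filter on low values, 8 with quantile normalisation, 9 without OE saline 2 and OE APAP 1 (a setting chosen after seeing the data), and 3 to 22 with 1 library left out. The OE minus Het count after APAP, 25, was 11 with no filter, 0 with lane in place of perfusion, 12 with quantile normalisation, 0 without OE saline 2 and OE APAP 1, and 0 to 28 with 1 library left out. Counts that were 0 rose with array weights to 22 for the Het minus WT response and 23 for Het minus WT under saline. The OE minus Het response went from 0 to 1 with lane, 10 with rare labels pooled, 2 with failed estimates kept, and 0 to 15 with 1 library left out. Het minus WT after APAP went from 1 to 0 with no perfusion term, 3 with lane and 13 with array weights, and 0 to 4 with 1 library left out. Het minus WT under saline reached 1 without OE saline 2 and OE APAP 1, and 0 to 1 with 1 library left out; OE minus WT after APAP was also 0 to 1. Shares of all genes called in each of these settings are not given, so the counts have no background. The cause of these shifts was not tested.

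Signs turned only for genes that were not called: Plin2 was 0.027 with no perfusion term and 0.17 with quantile normalisation, Angptl4 -0.27 with no perfusion term and -0.045 without OE saline 2 and OE APAP 1, and Cd36 0.063 with quantile normalisation and 0.068 with rare labels pooled. With 1 library left out, Angptl4 ran from -0.73 to 0.58, Plin2 from -0.20 to 0.20 and Cd36 from -0.19 to 0.12. A lane term could not be fitted for the averaged response, the WT response or comparisons with WT saline, whose lanes share no group with the rest. No paired analysis was possible because the labels give no replicate numbers shared between groups. Groups of 1 to 3 libraries and unknown read totals limit the precision of each value, most for genes of a few FPKM such as Pdk4 and Acot1 to Acot4.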
